A study of Mus musculus with 4 samples.

Results

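Cytochrome P450s, flavin monooxygenases, epoxide hydrolases, glucuronosyltransferases and sulfotransferases were followed across 4 pools of mouse lung. The members were all probe sets, the sets of short probes that together read 1 transcript, whose platform entry gave a single gene symbol starting with Cyp, Fmo, Ephx, Ugt1, Ugt2 or Sult and fitting the numbering of those families. Cyp51, an enzyme of sterol synthesis, was left out. This gave 63 probe sets for 54 genes, out of 8251 genes named on the array. Whole lungs of the inbred mouse strain C57BL/6J were pooled, and the total RNA of each pool was read on its own Affymetrix oligonucleotide array, 4 in all. The unexposed pool came from lungs without exposure, and the other pools came from mice that had inhaled hexamethylene diisocyanate (HDI), a reactive chemical of polyurethane coatings, as an aerosol of 10 mg per cubic metre 6, 18 or 90 h earlier. The sources used here do not give the number of mice in each pool, their age or the length of exposure. Since each group had a single array, replicate error could not be estimated, no test was made, and each fold describes these arrays. All 3 comparisons share the unexposed array.

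These enzymes carry out much of the body's handling of foreign chemicals. P450s use heme and electrons from a partner reductase to insert oxygen into a substrate, flavin monooxygenases oxidise nitrogen and sulfur with a flavin in place of heme, and epoxide hydrolases open the reactive epoxides that P450s can form. Glucuronosyltransferases and sulfotransferases then attach sugar acid or sulfate groups that make the product easier to excrete. In the lung several P450s are concentrated in club cells, the secretory cells of the small airways, while many other P450s are chiefly enzymes of liver, adrenal gland or gonad.

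Most of these genes gave little signal in whole lung. Values are in intensity units after the arrays were scaled to a common mean, and the floor, a stand-in for background, was 77.7 units, the 40th percentile of all scaled values. Of the 63 probe sets, 25 lay above the floor in the unexposed pool, 23 at 6 h, 20 at 18 h and 25 at 90 h. Counted by the brightest probe set of each gene, 25, 23, 19 and 24 of the 54 genes were above it, against 69.2%, 69.0%, 68.6% and 69.5% of all genes. All 4 arrays had 17 member genes above the floor, 10 had a value above it on only some arrays, and 27 had none on any array. Over all genes 61.6% were above the floor on all 4 arrays and 23.8% on none, against 31.5% and 50% of the members. Intensities of different probe sets are not compared as amounts, since each probe set binds with its own strength.

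The 27 genes without a value above the floor belonged to every family. Among P450s they were Cyp1b1, Cyp2b13, Cyp2c29, Cyp2c39, Cyp2c70, Cyp2d10, Cyp2j5, Cyp3a11, Cyp3a16, Cyp3a25, Cyp4a10, Cyp4a12b, Cyp4a14, Cyp7a1, Cyp24a1, Cyp26a1 and Cyp27b1. Cyp7a1 begins bile acid synthesis from cholesterol, Cyp26a1 degrades retinoic acid, and Cyp24a1 and Cyp27b1 inactivate and activate vitamin D. The others were Fmo5, Ephx2, Sult1b1, Sult1c1, Sult2a2, Sult2b1, Sult3a1, Sult5a1, Ugt2b5 and Ugt2b34. Ugt2b5, the glucuronosyltransferase member with the higher mean, read 54.7, 51.1, 46.9 and 76.0 units in the unexposed, 6, 18 and 90 h pools. These genes were not detectable above the floor on these arrays, and nothing is said of their direction.

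**Figure D1:**
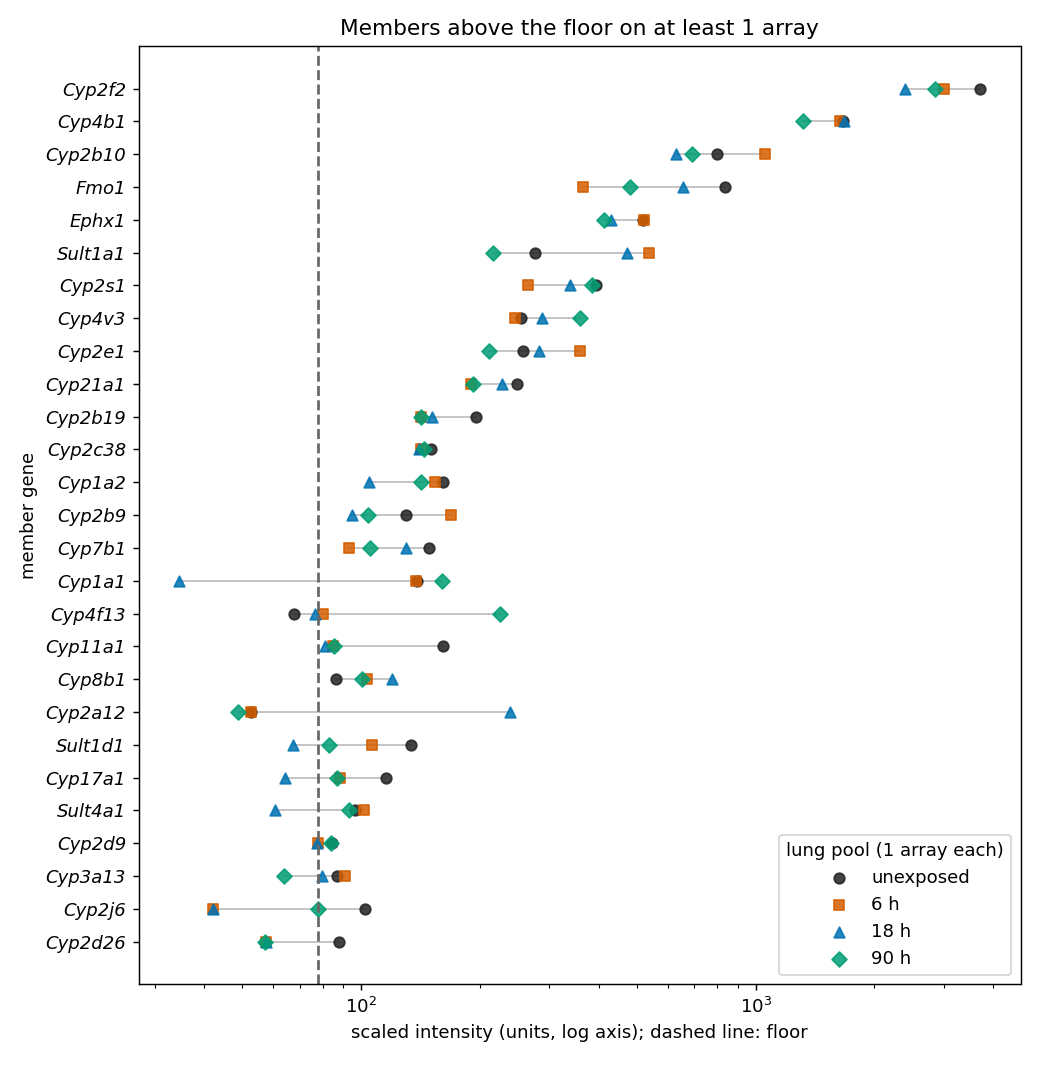
Scaled intensity on a log axis for the 27 member genes above the floor on at least 1 array, by their brightest probe set, with a point for each of the 4 pools and a dashed line at the floor of 77.7 units. Cyp2f2 was highest in the unexposed pool at 3715 units, Fmo1 lowest at 6 h at 365, and Cyp2a12 and Cyp4f13 each stood above the other pools in a single pool, at 18 h and 90 h.

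Few genes, members or others, stood 2-fold or more from the unexposed pool. With 26 members compared at each time, 1 member is 3.85%. At 6 h 1 of 26 compared members was at least 2-fold lower and none higher, against 1.51% and 2.17% of all genes compared. A gene was compared where at least 1 of both arrays was above the floor, and a gene at the floor on the other array gives only a bound. At 18 h 1 member was at least 2-fold higher and none lower, against 1.59% and 0.944% of all genes, and at 90 h again 1 was higher and none lower, against 0.726% and 0.924%. The members concerned were Fmo1 at 6 h, Cyp2a12 at 18 h and Cyp4f13 at 90 h. At 1.5-fold, 1 member was higher and 3 lower at 6 h, or 3.85% and 11.5% (all genes 7.15% and 6.06%). At 18 h 2 were higher and 5 lower, or 7.69% and 19.2% (6.79% and 6.13%). At 90 h 1 was higher and 3 lower, or 3.85% and 11.5% (3.40% and 4.88%). The share lower by 1.5-fold was thus above that of all genes at each time.

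Smaller differences leaned downward. The median log2 difference from the unexposed pool over compared members was -0.07 at 6 h, -0.25 at 18 h and -0.31 at 90 h, against -0.04, -0.01 and 0.03 over all genes. Of 26 compared members 17, 20 and 22 were below the unexposed pool at the 3 times. Over all genes compared, 54.6%, 51.9% and 46.2% were below it. Because a gene can enter such a count through the very pool where it is high, the members whose mean over the 4 arrays exceeded the floor were counted as well. Of those 25 members 15, 18 and 20 were below, or 60%, 72% and 80%, against 53.9%, 50.9% and 45.4% of 5760 genes chosen the same way. The mean includes the high pool, so this filter does not close that route. Cyp2a12 and Cyp4f13 passed it by their high values at 18 h and 90 h. A gene at the floor on both arrays stays in this count with a difference of 0, as not below. All 3 shares rest on the same unexposed array. Without scaling the medians were 0.04, -0.08 and -0.15, and those of all genes 0.07, 0.12 and 0.16. Among the 17 members above the floor on every array, 9 were brightest in the unexposed pool and 1, Cyp8b1, was dimmest there. The same count was not made over all genes, so these numbers stand without a background.

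**Figure D2:**
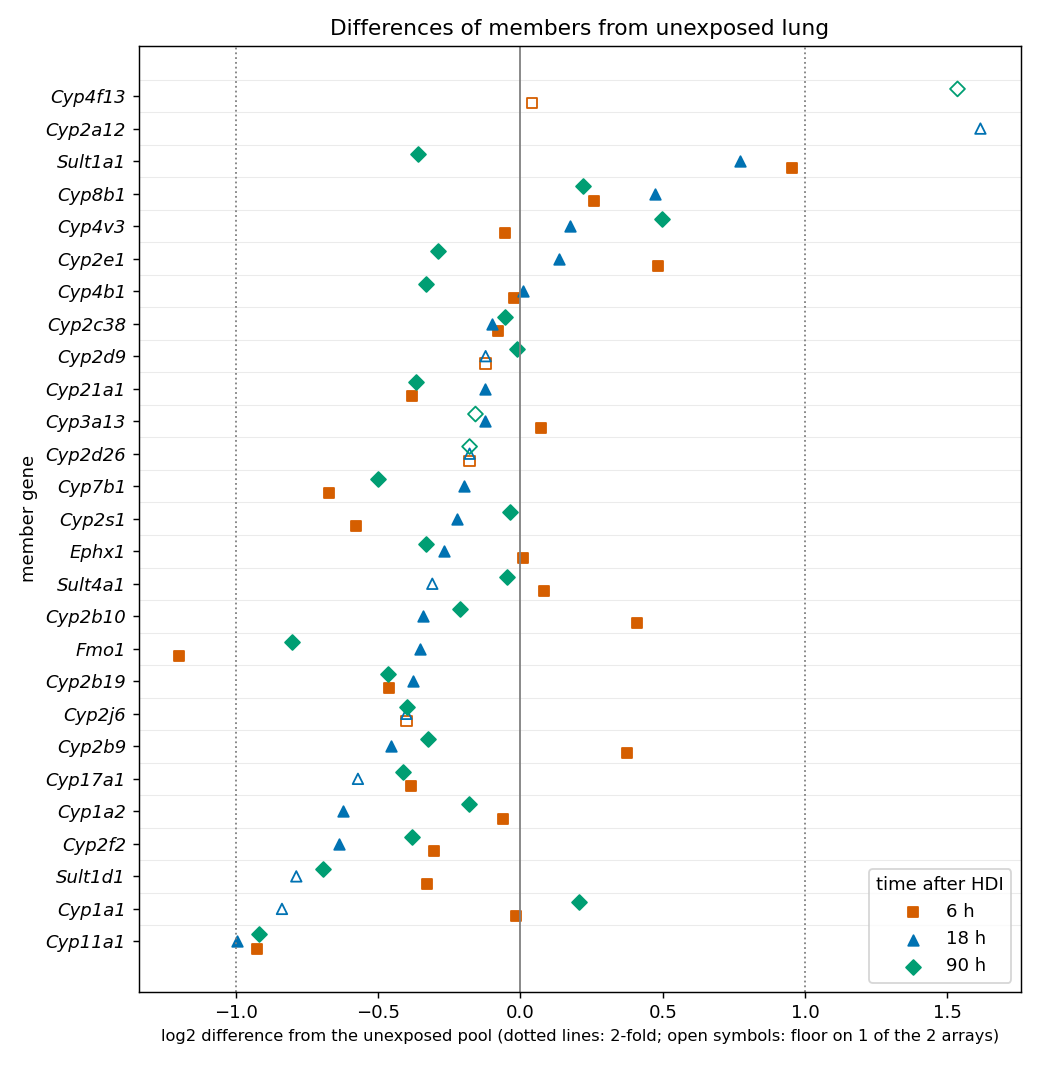
Log2 difference from the unexposed pool at 6, 18 and 90 h for member genes above the floor on at least 1 array, with open symbols where 1 of both arrays was at the floor and dotted lines at 2-fold. The points at 18 h and 90 h lie mostly left of 0, Fmo1 is the only measured member past 2-fold, and Sult1a1 lies right of 0 at 6 and 18 h and left of 0 at 90 h.

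The Cyp1 family holds the classic targets of the aryl hydrocarbon receptor, which senses planar aromatic compounds. Cyp1a1, which oxidises such compounds, read 139 units in the unexposed pool, 138 at 6 h, 34.5 at 18 h and 160 at 90 h. It was therefore level in 3 pools and below the floor at 18 h, at least 1.79-fold lower than unexposed. With a pseudocount of 50 in place of the floor its log2 difference at 18 h was -1.16, past 2-fold. Its other probe set was below the floor on all 4 arrays. Its neighbour Cyp1a2, mainly a liver enzyme, read 161, 154, 104 and 142 units, and was 1.54-fold lower at 18 h. Both genes were thus lowest in the same pool, Cyp1a1 below the floor and Cyp1a2 above it. Ahr, the receptor itself, named here after its values were seen, read 191, 130, 129 and 189 units, lower at 6 and 18 h and level at 90 h.

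The bases just before the start sites of Cyp1a1 and Cyp1a2 are shown because these neighbours were both lowest at 18 h. They come from RefSeq on GRCm38.p6, 250 bases to the start site, 5′ to 3′ along each gene. Capitals mark GCGTG, the core of the xenobiotic response element bound by the aryl hydrocarbon receptor, and TATAAA, the TATA box. Both strands were searched.
Cyp1a1, chr9:57697363-57697612, plus strand: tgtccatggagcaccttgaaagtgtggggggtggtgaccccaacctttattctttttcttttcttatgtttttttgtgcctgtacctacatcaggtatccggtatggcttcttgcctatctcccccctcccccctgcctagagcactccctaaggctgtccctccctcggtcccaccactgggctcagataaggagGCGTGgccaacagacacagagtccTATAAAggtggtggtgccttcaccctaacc
Cyp1a2, chr9:57683656-57683905, minus strand: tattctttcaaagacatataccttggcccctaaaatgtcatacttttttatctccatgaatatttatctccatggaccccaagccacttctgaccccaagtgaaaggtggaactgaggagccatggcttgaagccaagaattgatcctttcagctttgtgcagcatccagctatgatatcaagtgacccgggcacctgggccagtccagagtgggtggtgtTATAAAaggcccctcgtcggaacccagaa
Cyp1a1 holds GCGTG starting 54 bases before the start site and TATAAA 30 bases before it, and Cyp1a2 holds TATAAA 29 bases before it and no GCGTG in this window. The stretches were alike at 45.4% of 271 aligned positions.

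The same motifs were counted over all members. Windows were found for 42 of the 54 member genes, 22 of them for genes above the floor on at least 1 array. GCGTG occurred for 30.9% of 27025 genes with a window of this length and for 4 of the 22 genes, Cyp1a1, Cyp2b10, Cyp4v3 and Sult1d1. TGACNNNGC, the antioxidant response element bound by NRF2, occurred for 11.5% of all these genes and for Cyp8b1 alone of the 22. TGANTCA, the AP-1 site, occurred for 7.82% and for Cyp3a13 and Cyp4b1. TATAAA occurred for 14.3% and for 9 of the 22 genes. Over all 42 member genes with a window, GCGTG occurred for 7, TGACNNNGC for 1, TGANTCA for 4 and TATAAA for 17. GCGTG and TGACNNNGC can share bases, as can TGACNNNGC and TGANTCA. A match describes the letters and no factor's binding.

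In the Cyp2 family Cyp2f2, the club cell P450 that activates naphthalene and other aromatic compounds, read 3715 units in the unexposed pool, 3008 at 6 h, 2386 at 18 h and 2851 at 90 h. All 3 exposed pools were below the unexposed pool, with the lowest at 18 h, 1.56-fold lower, and a partial return by 90 h. Other club cell markers were set beside it. Of 12 listed markers 8 were on the array, and of the 7 other than Cyp2f2, 6, 5 and 6 were below the unexposed pool at 6, 18 and 90 h, with medians of -0.21, -0.35 and -0.26. Their summed intensity was 19511, 17121, 16329 and 15714 units, and Scgb1a1, the defining secretoglobin of club cells, had log2 differences of -0.26, -0.35 and -0.41. The part of club cell number in the level of Cyp2f2 was not tested, and in whole lungs fewer cells of a type and less RNA per cell cannot be told apart.

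Cyp2f2 lies in a cluster of P450 genes on chromosome 7, in which 7 members are near neighbours: Cyp2s1, Cyp2b10, Cyp2b13, Cyp2b9, Cyp2b19, Cyp2a12 and Cyp2f2. They did not share a pattern. Cyp2b10, which in liver responds to phenobarbital through the receptor CAR, read 797, 1058, 629 and 688 units, highest at 6 h and below the unexposed pool later. Its relative Cyp2b9 had its pools in the same order, at 130, 169, 95.0 and 104 units. At 6 h these genes were 1.33-fold and 1.30-fold above the unexposed pool, and at 18 h 1.27-fold and 1.37-fold below it. Cyp2b13, the member between them, was below the floor throughout. Both genes are close relatives, and their probe sets may bind each other's transcripts.

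The same stretch before the start site is shown for Cyp2b10 and Cyp2b9, whose intensities had the same order over the pools. Capitals again mark GCGTG or its reverse complement.
Cyp2b10, chr7:25897408-25897657, plus strand: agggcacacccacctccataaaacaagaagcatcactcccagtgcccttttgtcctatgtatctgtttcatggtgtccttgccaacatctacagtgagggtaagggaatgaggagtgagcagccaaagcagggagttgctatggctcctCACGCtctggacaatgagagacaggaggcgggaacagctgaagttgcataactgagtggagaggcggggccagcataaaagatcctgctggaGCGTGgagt
Cyp2b9, chr7:26173159-26173408, plus strand: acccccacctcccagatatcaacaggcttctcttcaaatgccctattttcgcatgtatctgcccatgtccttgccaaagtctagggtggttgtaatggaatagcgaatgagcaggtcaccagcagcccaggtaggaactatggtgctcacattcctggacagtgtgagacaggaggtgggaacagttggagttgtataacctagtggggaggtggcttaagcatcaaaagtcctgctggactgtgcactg
Cyp2b10 holds GCGTG on the opposite strand starting 101 bases before the start site and on its own strand 9 bases before it. Cyp2b9 holds none of the 4 motifs. The stretches were alike at 70% of 260 aligned positions, against 45.4% for Cyp1a1 and Cyp1a2.

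The remaining genes of the chromosome 7 cluster each went their own way. Cyp2s1, an epithelial P450 of airway and skin, read 395, 264, 338 and 385 units, 1.49-fold lower at 6 h and back to the unexposed level by 90 h. Cyp2b19, known from epidermis, read 196, 142, 151 and 142 units and was lower in all 3 exposed pools alike, by 1.30-fold to 1.38-fold. Cyp2a12, chiefly a liver steroid hydroxylase, was below the floor in the unexposed, 6 and 90 h pools at 52.7, 52.7 and 48.7 units, and read 238 units at 18 h. It was therefore at least 3.07-fold higher at 18 h, on 1 array and by 1 probe set.

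Other Cyp2 genes lay outside this cluster. Cyp2e1, which oxidises ethanol and other small molecules, read 258, 360, 283 and 211 units, highest at 6 h at 1.40-fold and lowest at 90 h at 1.22-fold below unexposed. Cyp2c38 was even across the pools, at 150, 142, 140 and 144 units, read by a probe set with a suffix for sequences shared within a gene family. Cyp2j6, Cyp2d9 and Cyp2d26 read 103, 84.6 and 88.0 units in the unexposed pool, close to the floor, and at 6 and 18 h all were below the floor. Of the 4 members of the Cyp3 family, the main drug-oxidising P450s of liver and gut, Cyp3a13 alone reached the floor, at 86.7, 91.2, 79.5 and 63.7 units.

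The Cyp4 family acts mainly on fatty acids and related lipids. Cyp4b1, a lung P450 that also activates some toxic plant compounds, read 1664, 1640, 1674 and 1322 units. It was level through 18 h and 1.26-fold lower at 90 h, by a probe set marked for possible cross-hybridisation. Cyp4v3, a fatty acid hydroxylase, ran the other way, at 255, 245, 287 and 360 units, and was 1.41-fold higher at 90 h. The brighter probe set of Cyp4f13 read 67.5, 79.9, 76.3 and 225 units, at least 2.90-fold higher at 90 h. This probe set carries a suffix that marks a family of sequences, and the other Cyp4f13 probe set, without one, read 71.2, 66.3, 78.0 and 91.9 units, at least 1.18-fold higher. The probe sets thus differed in size at 90 h. Cyp4a10, Cyp4a12b and Cyp4a14, liver and kidney hydroxylases controlled by PPAR alpha, were below the floor throughout.

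Of the 5 P450s of steroid and bile acid metabolism above the floor in some pool, 4 were highest in the unexposed pool. This count too has no share over all genes beside it. Cyp11a1, which cuts the side chain of cholesterol in the first step of steroid synthesis, read 161 units in the unexposed pool and 84.9, 80.9 and 85.4 in the 3 exposed pools. The exposed pools lay together just above the floor, 1.90-fold, 2.0-fold and 1.89-fold below the unexposed pool, the second short of the threshold before rounding. Cyp17a1, a steroid hydroxylase, read 115, 88.4, 64.3 and 86.7 units, and Cyp21a1, an adrenal steroid hydroxylase, 248, 190, 228 and 192. Cyp21a1 was well above the floor in every pool, but its probe set has a suffix that marks a sequence shared between similar genes. Its signal may therefore not come from this gene alone. Of the other steroid organ markers listed, Star read 98.6, 93.8, 69.1 and 86.4 units and Hsd3b1 was below the floor on all 4 arrays. The part of neighbouring tissue in these values was not tested.

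Cyp7b1, an oxysterol hydroxylase, read 149, 93.3, 130 and 105 units, 1.60-fold lower at 6 h and between these values at the later times. Cyp8b1, which sets the proportion of cholic acid in bile, was the only measured gene of this group above the unexposed pool at all 3 times, at 86.2, 103, 120 and 101 units, with its largest difference 1.39-fold at 18 h. Of 14 listed liver markers 12 were on the array, and Apoh, Fgb, Fgg, Ambp and F2 were below the floor in every pool. The other 7 were above the floor on some array. Apoa1, an apolipoprotein of liver and gut, read 1322, 980, 647 and 1109 units, 2.04-fold lower at 18 h. Ahsg, a liver plasma protein, read 343, 262, 266 and 278 units, and Alb, the gene of serum albumin, 137, 177, 146 and 137. The part of these transcripts' source in the members' levels, Cyp1a1 and Cyp1a2 at 18 h included, was not tested.

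Fmo1, a flavin monooxygenase well expressed in mouse lung, had the largest difference measured on both arrays among the members. It read 838 units in the unexposed pool, 365 at 6 h, 656 at 18 h and 481 at 90 h. All 3 exposed pools were below the unexposed pool, by 2.30-fold, 1.28-fold and 1.74-fold, with the 18 h pool nearest to it. Fmo5 was below the floor by both of its probe sets. Ephx1, the microsomal epoxide hydrolase, read 518, 521, 430 and 412 units, level at 6 h and 1.20-fold and 1.26-fold lower at 18 and 90 h. Ephx2, the soluble epoxide hydrolase, was below the floor throughout.

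Markers of white blood cells were also low in the pool where Fmo1 was lowest. The 4 markers listed, Ptprc, Cd52, Coro1a and Laptm5, summed to 1924 units in the unexposed pool, 872 at 6 h, 1177 at 18 h and 2091 at 90 h, with 4 of 4 below the unexposed pool at 6 h. None of these markers was below the floor in every pool. Endothelial markers had medians of -0.03, -0.08 and -0.10 over 7 genes, with 4 below and 3 above the unexposed pool at 6 h. Of these, Kdr read 327, 133, 319 and 411 units, 2.46-fold lower at 6 h. Type II cell markers had medians of -0.08, 0.02 and 0.01 over the 4 compared. The part of these cell types in the level of Fmo1 was not tested. Of the fat markers 4 of 4 compared were above the unexposed pool at 6 h, with a median of 0.82. Their summed intensity was 240, 580, 249 and 259 units. Adipoq read 83.9, 145, 46.9 and 62.5 units and Retn 86.7, 149, 151 and 148, both close to the floor in the unexposed pool. Pck1 and Ucp1 were above the floor at 6 h alone and Cidec in no pool. Pck1 and Ucp1 were thus compared only through the 6 h pool and could only come out higher, which also raises the median. The part of fat in the members highest at 6 h, Cyp2e1, Cyp2b10, Cyp2b9 and Sult1a1, was not tested.

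Sult1a1, the phenol sulfotransferase, was the member furthest above the unexposed pool among those measured on both arrays. It read 277 units in the unexposed pool, 536 at 6 h, 473 at 18 h and 216 at 90 h. The 6 and 18 h pools were 1.94-fold and 1.71-fold above the unexposed pool, and the 90 h pool 1.28-fold below it. From highest to lowest pool this was 2.48-fold, the widest span among the 17 members above the floor on every array, where the median span was 1.54-fold. Over all 5083 genes above the floor on every array the median span was 1.36-fold. Spans of at least 1.5-fold were found for 52.9% of these members and 30.3% of these genes. Unscaled, the log2 difference of Sult1a1 at 6 h was 1.07, past 2-fold. Its other probe set, with a suffix that marks relaxed probe selection, was below the floor on all 4 arrays.

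Sult1d1, which sulfates catecholamines, was below the unexposed pool at all 3 times. It read 134, 107, 67.2 and 82.9 units, at least 1.73-fold lower at 18 h and 1.62-fold lower at 90 h. Sult4a1, a brain sulfotransferase, read 96.3, 102, 60.7 and 93.3 units, below the floor only at 18 h. Papss2, which makes the sulfate donor that all sulfotransferases use, read 104, 184, 137 and 102 units, 1.77-fold higher at 6 h and level at 90 h. Among the 5 compared genes that supply conjugation, Slc35d1, a carrier of nucleotide sugars, was 1.53-fold higher at 6 h, and Ugdh, which makes UDP-glucuronic acid, 1.42-fold higher at 18 h. Papss1 was 1.19-fold lower at 6 h. None of the 5 passed 2-fold at any time.

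The receptors and partners of these enzymes were read from a list of the pathway. Of 16 compared receptors and regulators none was 2-fold away at any time, and their medians were -0.10, -0.15 and -0.11. Hnf4a, a nuclear receptor that drives liver genes, read 190, 122, 113 and 113 units, 1.68-fold lower at 18 and 90 h. Nr1i3, the receptor CAR, read 419, 439, 351 and 274 units, 1.53-fold lower at 90 h. Cebpb, a transcription factor of stress and inflammation, was 1.66-fold higher at 18 h, and Nfe2l2, the gene of NRF2, 1.56-fold higher.

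Of 14 compared genes of electron and heme supply 1 was at least 2-fold higher at 6 h and 1 lower at each time. Hmox1, which breaks heme down, read 335, 1881, 510 and 310 units, 5.62-fold higher at 6 h. Ppox, an enzyme late in heme synthesis, read 175, 77.7, 69.8 and 69.9 units, 2.25-fold lower at 6 h, where it lay at the edge of the floor. Fech, which places iron into heme, was 1.70-fold higher at 6 h, from 78.1 units in the unexposed pool, also at the edge of the floor. The probe sets of Ppox and Fech both carry the suffix that marks relaxed probe selection. Fdx1, the electron carrier of mitochondrial P450s, was 1.65-fold higher at 6 h. Of the 6 compared other target enzymes of AHR or NRF2, listed together, 4 were at least 2-fold higher at 6 h, against 2.17% of all genes. Gclm, Tiparp and Nqo1 were below the floor in the unexposed pool. They were compared only through the 6 h pool and could only come out higher. The 4 past 2-fold were Gclc at 7.03-fold and Txnrd1 at 5.31-fold, measured on both arrays, Gclm at least 3.32-fold and Tiparp at least 2.52-fold. The activity of either factor was not tested. Of 4 compared export pumps none passed 2-fold, with Abcg2 at least 1.42-fold lower at 18 h.

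Families of neighbouring function lay closer to the unexposed pool at the later times. The 17 compared glutathione S-transferases had medians of -0.10, 0.03 and -0.07 at 6, 18 and 90 h, and enzymes that oxidise or reduce aldehydes and carbonyls -0.09, -0.11 and -0.13, against -0.07, -0.25 and -0.31 for the members. None of the aldehyde and carbonyl enzymes was 2-fold away at any time, and 1 glutathione S-transferase was, higher at 18 h. These medians come from 1 array each, and the difference between families was not tested.

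**Figure D3:**
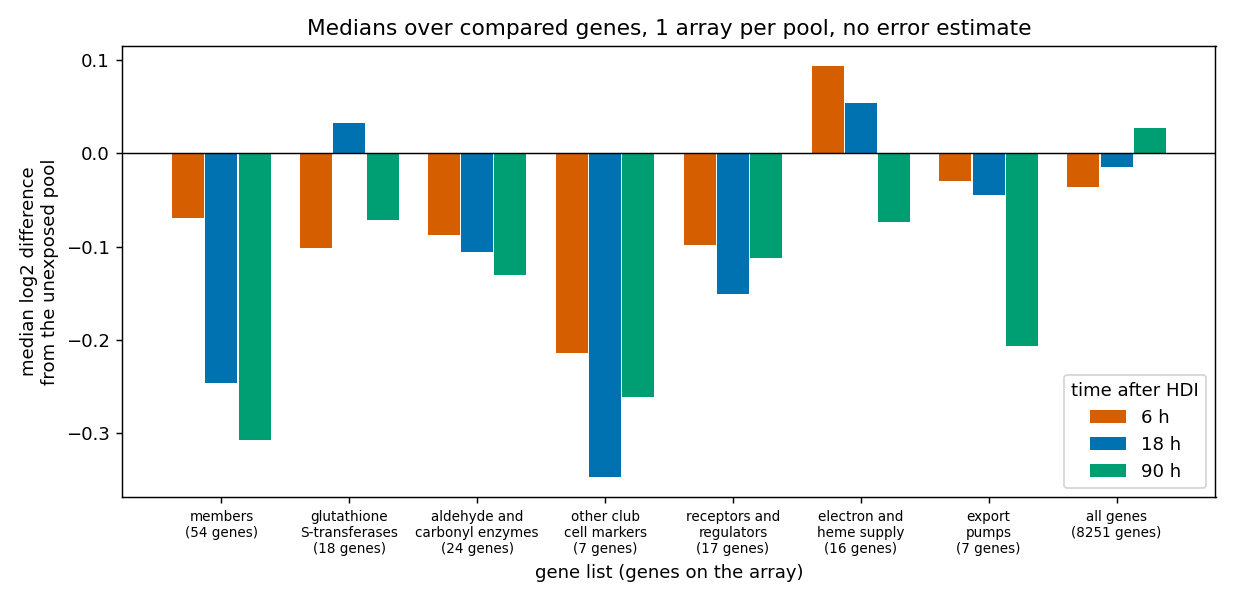
Median log2 difference from the unexposed pool at 6, 18 and 90 h over the compared genes of each list, with the number of genes on the array under each name; bars start at 0 and carry no error, since each pool had 1 array. The members' bars reach -0.25 and -0.31 at 18 and 90 h, those of other club cell markers -0.35 and -0.26, and those of all genes stay between -0.04 and 0.03.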

How the data were processed

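The authors deposited 1 linear intensity per probe set and array. The sources used here do not give the software, background correction or scaling behind it. Exact zeros numbered 184, 102, 105 and 126 in the unexposed, 6, 18 and 90 h pools, with none below 0. Of 12488 probe sets 66 were controls, 10833 had 1 gene symbol, 396 several and 1193 were not listed. Gene identifiers changed 0 symbols. Each array was scaled to a common mean after trimming 2% at each end (factors 1.07, 0.992, 0.970 and 0.972), set to a floor at the 40th percentile and taken to log2. The probe set brightest on average over the 4 arrays stands for its gene. Folds were counted at 2-fold, without a test, and the number of arrays limits precision. Any member above the floor in some pool could be named. All values were due for the 15 members with the highest means, members past 2-fold and the brightest member of each family, and were given for further members after seeing them. Up to 4 genes were named per other list, with Ahr added. Members and lists were chosen with earlier results of these data known. The code, in Python 3.11.15 with pandas 2.3.3, was tested on simulated data. Alternatives were other scalings, floors, a pseudocount, thresholds and probe set rules, and, added after seeing the data, a filter on the mean.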

Additional observations from a re-analysis of the deposited data

How the results depend on the processing

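With 1 array per pool nothing measures the spread between animals or arrays. No paired analysis was possible because each group has 1 array. Of 587 single comparisons of members above the floor under an alternative, 578 stayed on their side of 2-fold and 0 of those past it changed sign. Most of the 587 were small differences, since only Fmo1 at 6 h, Cyp2a12 at 18 h and Cyp4f13 at 90 h started past 2-fold. Comparisons of these fell short of 2-fold 4 times, and 5 comparisons of other members rose past it. Comparisons that an alternative left out are not among the 587. A floor at the 25th percentile left 38, 36 and 31 member probe sets above it in the unexposed, 6 and 18 h pools, and one at the 60th left 16, 14, 13 and 15 in the 4 pools. Members lower were then 2 at 6 h and 2 at 18 h by the lower floor, with Cyp2j6 joining at both times and Cyp1a1 at 18 h, and members higher 0 at 18 h and 0 at 90 h by the higher floor, where the 18 h median was -0.12. A pseudocount of 50 gave 1 lower member at 18 h, Cyp1a1 at -1.16. Unscaled values gave 1 higher member at 6 h, Sult1a1, and medians of 0.043, -0.080 and -0.15. Averaging all probe sets, or leaving out probe sets with a suffix, gave 0 higher members at 90 h, since the Cyp4f13 log2 difference became 0.89 and 0.24. At 1.5-fold 1, 2 and 1 members were higher and 3, 5 and 3 lower at 6, 18 and 90 h. At 3-fold 0 were higher at 90 h and 0 lower at 6 h. Another floor changes which genes are compared and where a bound lies. For the other changes the cause was not tested, apart from Cyp4f13, whose suffixed probe set is averaged or left out by construction.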

Other observations

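Probe sets whose platform entry lists several genes were no members, but 8 of them held a gene of these families and 6 of those exceeded the floor in some pool. The probe set shared by Cyp2a4 and Cyp2a5, P450s that hydroxylate steroids and coumarin, read 478 units in the unexposed pool, 293 at 6 h, 265 at 18 h and 159 at 90 h. It was lower in each later pool, with log2 differences of -0.71, -0.85 and -1.59, and at 90 h it was 3.01-fold lower. No member measured on both arrays was as far from the unexposed pool at any time. Its suffix marks a sequence shared between similar genes, so the signal cannot be assigned to either gene.

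The probe set for the shared part of the Ugt1a locus, which lists 8 Ugt1a genes, was even across the pools at 449, 464, 462 and 432 units. It is the only glucuronosyltransferase probe set of the array above the floor among those with a Ugt1 or Ugt2 symbol. A probe set shared by Cyp4b1 and its pseudogene Cyp4b1-ps2 read 697, 654, 656 and 500 units, 1.39-fold lower at 90 h, where the Cyp4b1 member was 1.26-fold lower. The probe set of Cyp2d9 and Cyp2d12 read 117, 106, 95.9 and 71.7 units. Cyp51, left out of the members, read 42.0, 54.2, 120 and 78.9 units, at least 1.55-fold higher at 18 h.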
